A study of Mus musculus with 24 samples.

Results

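Claudins and their partners at the tight junction were followed in alveolar epithelial cells (AECs) with and without Krt8. The members are 9 genes taken by name from the table of read counts, out of 55421 mouse genes listed there, and no measured value entered the choice. They are 6 claudins (Cldn1, Cldn3, Cldn4, Cldn6, Cldn7 and Cldn18), the membrane protein occludin (Ocln), and the cytoplasmic scaffolds Tjp1 (ZO-1) and Cgn (cingulin). All 9 members passed the filter on low counts.

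Tight junctions seal the gap between neighbouring epithelial cells near their apical side. Claudins are membrane proteins with 4 spans whose outer loops meet those of the next cell, and the mixture of claudins sets how leaky the seal is and which ions pass. Ocln sits in the same strands, and ZO-1 and cingulin tie the strands to actin and myosin. In the alveolus, this seal keeps fluid out of the airspace. Cldn3 is known from surfactant-making AEC2s, Cldn18 is the claudin typical of alveolar epithelium, and Cldn4 is known to rise in injured lung and in AECs between the AEC2 and AEC1 states.

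AEC2s were isolated from Krt8+/+ mice and from Krt8-/- mice, which lack keratin 8, and the libraries were made from total RNA. Each genotype was measured in freshly isolated cells (day 0) and after 1, 3 and 7 days of culture on plastic, with 3 replicates in each of the 8 groups of genotype and day. The paper describes the stiff surface of these cultures as laminin-coated. Each replicate number goes with a batch date that both genotypes and all days share, and the labels do not say what the date marks. The study asked whether keratin 8 affects the change of cultured AEC2s toward other states. The sources used here do not give the strain, sex or age of the mice or their number per replicate, so p values measure the spread between replicates, which may hold mouse and technical differences alike.

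The 24 libraries held 10184439 to 19483386 counts each. Values below are CPM, the reads of a gene relative to the total of its library after scaling with TMM factors, and are given for replicates 1, 2 and 3 in that order. Tests are edgeR's quasi-likelihood F test over 18046 genes, with p values adjusted by Benjamini-Hochberg and a threshold of 0.05. Krt8 was counted at 485 to 5092 CPM in Krt8+/+ libraries and at 21.2 to 47.4 CPM in Krt8-/- libraries, so each library matched its genotype label. The summed level of 9 AEC2 markers fell in Krt8+/+ AECs from 230984 to 304783 CPM on day 0 to 206 to 289 CPM on day 7, and all 9 fell in the test. In bulk RNA, fewer cells of a type and less RNA per cell cannot be told apart, and this holds for each change over time below.

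On each day of culture, 6 of the 9 members differed from day 0 in Krt8+/+ AECs. On day 1, 4 were higher and 2 lower, against 54.7% of all tested genes past the threshold (26.2% higher and 28.5% lower). On day 3, 5 were higher and 1 lower, against 54.0% of all genes (26.1% higher and 27.8% lower). On day 7, 4 were higher and 2 lower, against 58.8% (28.6% higher and 30.2% lower). The share of members that changed was near that of all genes. The median log2 change of the members was 0.49, 0.77 and 0.30 on days 1, 3 and 7, where that of all genes was 0.00, -0.00 and 0.00. The numbers in Krt8-/- AECs were 4 higher and 2 lower on day 1, against 50.6% of all genes (23.7% higher and 26.9% lower). They were 5 higher and 1 lower on day 3, against 52.0% (25.4% and 26.6%), and 4 higher and 2 lower on day 7, against 58.5% (28.6% and 29.9%).

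**Figure D1:**
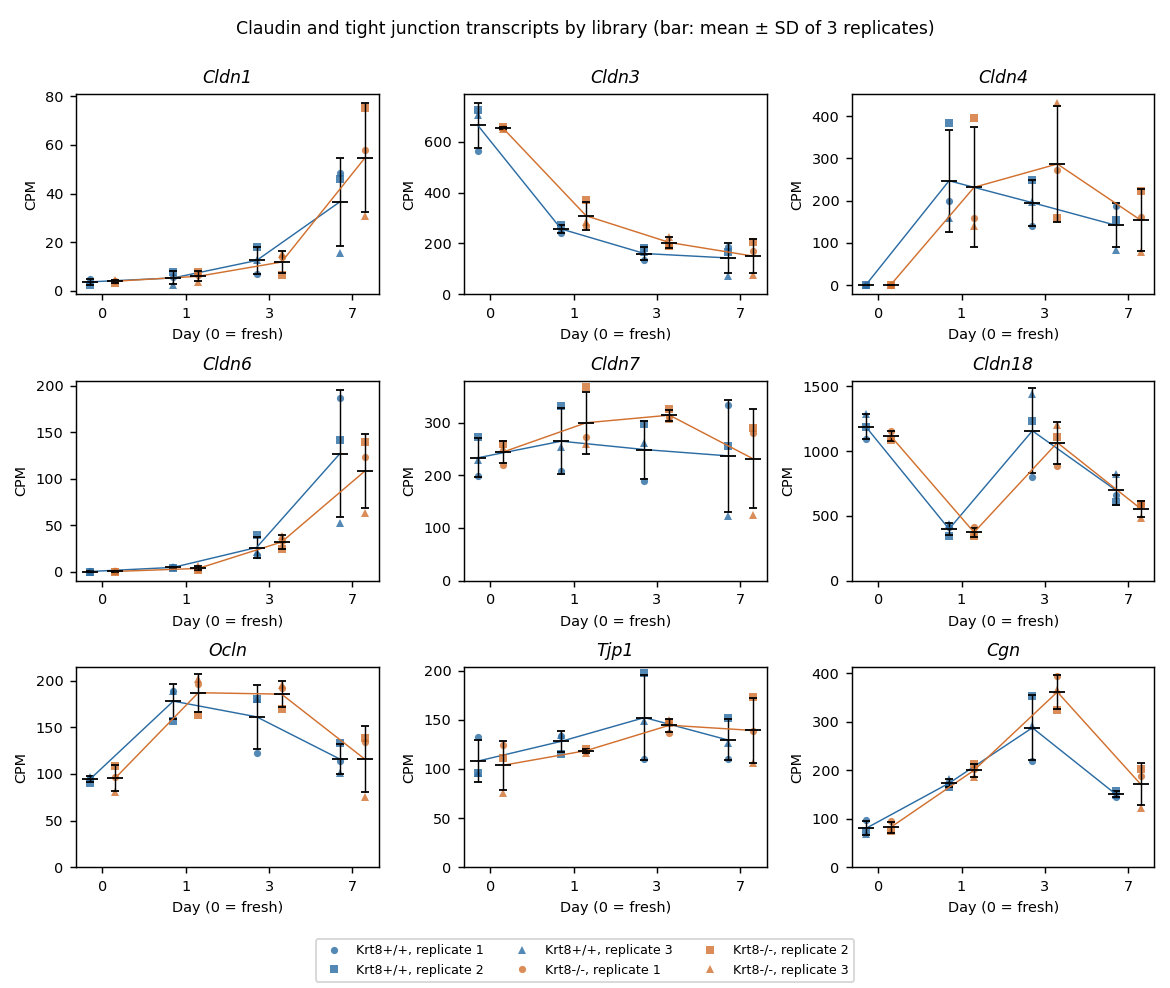
CPM of each member (linear axis) in each library by day of culture, with blue for Krt8+/+, orange for Krt8-/-, a symbol for each replicate, and a bar for the mean ± SD of 3 replicates. Cldn4 is near 0 on day 0 and between 78.0 and 430.5 CPM in all 18 cultured libraries. Cldn6 climbs on each day and Cldn3 falls. Cldn18 dips on day 1 and rises by day 3 to values that overlap those of day 0 but spread more widely.

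Cldn4 (ENSMUSG00000047501; chr5:134945119-134946934, minus strand of GRCm38) had the largest change of the members on days 1 and 3 in both genotypes, and on day 7 Cldn6 changed by about as much or more. In Krt8+/+ AECs it was counted with 4, 3 and 0 reads on day 0, which is 0.254, 0.325 and 0 CPM. It then stood at 198, 385 and 158 CPM on day 1, at 141, 249 and 196 CPM on day 3, and at 188, 154 and 84.4 CPM on day 7. Every cultured library was above every fresh library. From the summed reads, day 1 was 1161-fold over day 0 (95% exact interval 563 to 2888, for counting error only), day 3 949.6-fold (461 to 2363) and day 7 682-fold (331 to 1698). The fitted log2 changes were 10.17 (SE 0.79, edgeR adjusted p = 3.1e-09), 9.83 (SE 0.79) and 9.37 (SE 0.78), and their size depends on the prior count given to a gene near 0. No change between days 1 and 3 or days 3 and 7 passed the test (log2 -0.34 with adjusted p = 0.605 and -0.46 with adjusted p = 0.643, edgeR). Their 95% intervals were -1.26 to 0.58 and -1.39 to 0.46.

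In Krt8-/- AECs, Cldn4 had 12, 5 and 11 reads on day 0 (0.864, 0.506 and 0.850 CPM). It reached 159, 395 and 141 CPM on day 1, 272, 158 and 430.5 CPM on day 3, and 161, 223 and 78.0 CPM on day 7. The ratios of summed reads to day 0 were 322 (223 to 485), 367 (254 to 553) and 197 (136 to 296). The day 0 count behind them was 28 reads, against 7 in Krt8+/+ AECs, a difference that did not pass the test. On day 1, replicate 2 had the highest Cldn4 in both genotypes. The summed AEC2 markers of that replicate were the lowest on day 1, and Sftpc, a surfactant protein gene, stood at 12171 CPM there in Krt8+/+ AECs against 66036 and 53552 CPM in replicates 1 and 3. The part of that difference in the Cldn4 level was not tested.

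The 250 bases before the start of Cldn4 and of Cldn3, a claudin that changed in the opposite direction, are shown with those of Cldn18, whose level dipped and returned, because these 3 claudins show the rise, the fall and the dip that the results turn on. They are RefSeq promoters (GRCm38.p6), written 5′ to 3′ on the gene's strand, with the matches of the motifs searched in capitals. Cldn4 (chr5:134946935-134947184, minus strand) and Cldn3 (chr5:134985964-134986213, plus strand) lie on the same chromosome. The Cldn18 stretch (chr9:99717268-99717517, minus strand) is that of the upstream of its RefSeq start sites.
Cldn4: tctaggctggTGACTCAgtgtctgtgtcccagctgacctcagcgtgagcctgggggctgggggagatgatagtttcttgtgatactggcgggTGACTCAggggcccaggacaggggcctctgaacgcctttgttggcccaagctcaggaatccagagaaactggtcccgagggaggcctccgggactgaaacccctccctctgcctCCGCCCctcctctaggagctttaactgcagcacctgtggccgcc
Cldn3: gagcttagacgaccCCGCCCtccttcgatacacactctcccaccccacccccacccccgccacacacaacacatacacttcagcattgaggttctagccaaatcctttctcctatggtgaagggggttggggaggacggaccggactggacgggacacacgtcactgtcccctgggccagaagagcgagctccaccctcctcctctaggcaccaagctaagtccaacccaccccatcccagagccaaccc
Cldn18: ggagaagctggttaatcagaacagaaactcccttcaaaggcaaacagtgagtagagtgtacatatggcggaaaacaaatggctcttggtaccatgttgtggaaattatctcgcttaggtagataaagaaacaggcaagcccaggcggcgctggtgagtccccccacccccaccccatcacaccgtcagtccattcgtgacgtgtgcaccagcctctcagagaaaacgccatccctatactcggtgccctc

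Each motif was searched on both strands in the 12 RefSeq promoters of the 9 members, and its share is that among all 32851 promoters of the same length. The AP-1 motif TGANTCA, held by 6.75% of all promoters, was found in Cldn4 alone, with matches whose first base lies 240 and 158 bases before the start. The SP/KLF motif GGGCGG (32.7% of all) was found in 9 of the 12 promoters. They belong to 8 of the 9 members, with Cldn18 the exception, and Cgn held 6 matches. The NKX2-1 motif CTCAAG (13.3%) was found in Cldn6 and in an Ocln promoter, and the TEAD motif GGAATG (12.6%) in a Cldn7 promoter. Neither the GRHL motif ACCGGT (1.86%) nor the TATA box TATAAA (12.4%) was found in any member. The GC content was 62.0% for Cldn4, 60.8% for Cldn3 and 52.0% for Cldn18, beside a median of 52.4% for all promoters. Over the 12 promoters of the members it ran from 51.2% for a Cldn7 promoter to 70.4% for Cgn. A match describes these letters in this window and is no evidence of a bound factor.

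Cldn6 (ENSMUSG00000023906; chr17:23679249-23682446, plus strand), a claudin best known from embryonic epithelia, rose in steps through the culture. In Krt8+/+ AECs it had 5, 1 and 0 reads on day 0 (0.318, 0.108 and 0 CPM), and then 4.48, 4.01 and 5.23 CPM on day 1, 17.6, 38.9 and 21.3 CPM on day 3, and 187, 142 and 52.0 CPM on day 7. The groups did not overlap from any day to the next. Day 7 was 709-fold over day 0 by summed reads (95% exact interval 326 to 1934, counting error only). The step from day 1 to day 3 was 5.65-fold (log2 2.50, SE 0.46, edgeR adjusted p = 5.4e-04), and that from day 3 to day 7 was 4.89-fold (log2 2.29, SE 0.44, adjusted p = 0.00242). The latter did not pass without replicate 1 (log2 1.69, adjusted p = 0.169).

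Krt8-/- AECs showed the same order of days for Cldn6. It was counted with 2, 1 and 4 reads on day 0, and stood at 2.78, 1.69 and 5.84 CPM on day 1, 32.6, 24.3 and 38.7 CPM on day 3, and 123, 139 and 62.6 CPM on day 7. Here too the groups of successive days did not overlap. The steps were log2 3.22 (edgeR adjusted p = 8.0e-05) from day 1 to day 3 and 1.76 (adjusted p = 0.00979) from day 3 to day 7, and the latter did not pass without replicate 1 (adjusted p = 0.132) or replicate 2 (0.172).

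Cldn1 (ENSMUSG00000022512; chr16:26356642-26371841, minus strand), a sealing claudin essential in skin, rose late and from a low level. In Krt8+/+ AECs it was at 4.71, 2.38 and 4.10 CPM on day 0, 5.65, 7.86 and 2.51 CPM on day 1, 6.82, 17.9 and 12.8 CPM on day 3, and 48.3, 45.9 and 15.7 CPM on day 7. Day 1 overlapped day 0, and days 3 and 7 did not. The log2 change was 1.73 (SE 0.50, edgeR adjusted p = 0.00595) on day 3, which did not pass without replicate 2 (log2 1.24, adjusted p = 0.092), and 3.27 (SE 0.51, adjusted p = 1.5e-05, 9.68-fold) on day 7. The steps from day 1 to day 3 and from day 3 to day 7 missed the threshold (log2 1.24, adjusted p = 0.063, and 1.55, adjusted p = 0.05005, edgeR) and passed it with the replicate as a block (adjusted p = 0.0402 and 0.0472).

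For Cldn1 in Krt8-/- AECs, the values were 3.96, 3.44 and 4.56 CPM on day 0, 6.73, 7.65 and 3.66 CPM on day 1, 14.0, 6.51 and 15.1 CPM on day 3, and 57.8, 75.3 and 30.8 CPM on day 7. Day 7 was 13.6-fold over day 0 (log2 3.77, edgeR adjusted p = 2.9e-06), and each of its libraries was above each library of the other days. The change on day 3 (log2 1.57, adjusted p = 0.0113) did not pass without replicate 1 (adjusted p = 0.117). The step from day 3 to day 7 (log2 2.20, adjusted p = 0.00394) did not pass without replicate 1 (0.0725) or replicate 2 (0.112).

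Cldn3 (ENSMUSG00000070473; chr5:134986214-134987472, plus strand), a sealing claudin of AEC2s, fell from the first day on. Krt8+/+ AECs went from 563, 726 and 704 CPM on day 0 to 241, 272 and 258 CPM on day 1, 133, 180.3 and 167 CPM on day 3, and 187, 168 and 73.6 CPM on day 7. Every cultured library was below every fresh library. The log2 changes from day 0 were -1.37 (SE 0.29, edgeR adjusted p = 5.5e-04), -2.05 (SE 0.30, adjusted p = 7.7e-06) and -2.22 (SE 0.30, adjusted p = 2.4e-06), the last a 4.65-fold lower level. The steps from day 1 to day 3 and from day 3 to day 7 did not pass (log2 -0.68, adjusted p = 0.0874, and -0.17, adjusted p = 0.831, edgeR). Of the 1259 exon bases of Cldn3, 40 are shared with the antisense gene Wbscr25, and the sources used here do not say whether the counting used strand.

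The same gene in Krt8-/- AECs stood at 656, 657 and 651 CPM on day 0, 269.5, 372 and 285 CPM on day 1, 195, 189 and 227 CPM on day 3, and 171, 204 and 75.7 CPM on day 7. The fall on day 1 was log2 -1.08 (edgeR adjusted p = 0.004), which did not pass without replicate 1 (adjusted p = 0.0647), and that on day 7 was -2.12 (adjusted p = 4.1e-06). The steps from day 1 to day 3 and from day 3 to day 7 again did not pass (log2 -0.60, adjusted p = 0.139, and -0.44, adjusted p = 0.404, edgeR).

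Cldn18 (ENSMUSG00000032473; chr9:99689461-99717267, minus strand) fell on day 1 and returned on day 3. Its lung and stomach forms start at different promoters, and the counts per gene do not separate them. In Krt8+/+ AECs it stood at 1096, 1187 and 1285 CPM on day 0, 415, 347 and 434 CPM on day 1, 797, 1233 and 1441 CPM on day 3, and 666, 607 and 827 CPM on day 7. The day 1 libraries were below all others, the day 3 libraries overlapped those of day 0, and the day 7 libraries were below those of day 0. The level was 2.98-fold lower on day 1 (log2 -1.58, SE 0.18, edgeR adjusted p = 4.9e-07), and it rose 2.90-fold from day 1 to day 3 (log2 1.54, SE 0.18, adjusted p = 5.4e-06). On day 3 the difference from day 0 was log2 -0.04 (SE 0.18, adjusted p = 0.869), and it changed sign with scaling to library totals (log2 0.57, adjusted p = 0.0062, where the median of all genes moved by 0.60).

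By day 7, Cldn18 in Krt8+/+ AECs was lower than on day 0 (log2 -0.77, edgeR adjusted p = 9.5e-04) and than on day 3 (log2 -0.73, adjusted p = 0.0152). Without replicate 2 the first of these did not pass (adjusted p = 0.0589), and the second passed neither without replicate 2 (0.336) nor without replicate 3 (0.116). Krt8-/- AECs had 1158, 1087 and 1105 CPM on day 0, 412, 348 and 360.2 CPM on day 1, 888, 1108 and 1202 CPM on day 3, and 593, 589 and 486 CPM on day 7. The order of days was the same, with log2 -1.58 on day 1 (edgeR adjusted p = 5.4e-07), 1.51 from day 1 to day 3 (adjusted p = 7.8e-06) and -0.94 from day 3 to day 7 (adjusted p = 0.00142), the last not past without replicate 3 (0.0621).

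Cldn7 (ENSMUSG00000018569; chr11:69964779-69967885, plus strand), found along the sides of many epithelial cells and bound by Epcam, passed the test on no day in either genotype. Its Krt8+/+ values were 198, 272 and 229 CPM on day 0, 209, 331 and 254 CPM on day 1, 189, 297 and 261 CPM on day 3, and 333, 255 and 122 CPM on day 7. The log2 change on day 7 was 0.02 (95% interval -0.61 to 0.65, edgeR adjusted p = 0.955), so a change of either sign within those bounds remains possible. Krt8-/- libraries stood at 220.2, 260.0 and 252 CPM on day 0, 272, 367 and 259.6 CPM on day 1, 309.7, 326 and 306 CPM on day 3, and 281, 289.8 and 124 CPM on day 7. Day 3 lay above day 0 in all 3 replicates there (log2 0.36, adjusted p = 0.331).

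**Figure D2:**
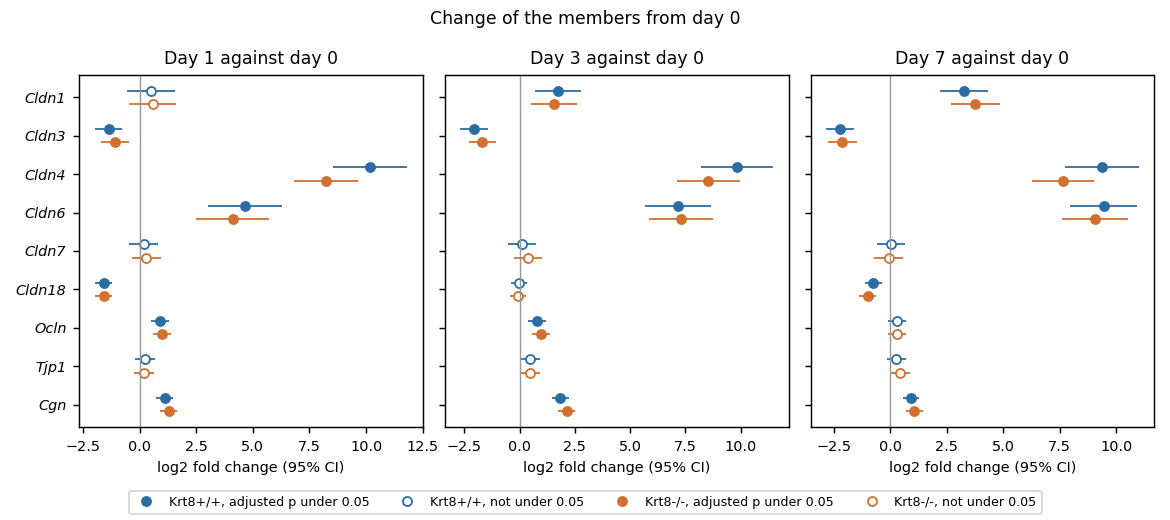
Log2 change of each member from day 0 on days 1, 3 and 7 in Krt8+/+ (blue) and Krt8-/- AECs (orange), with 95% intervals from edgeR, filled points for changes past the threshold and open points for the others. Cldn4 and Cldn6 lie far to the right, Cldn3 to the left on each day, and neither Cldn7 nor Tjp1 passed the threshold on any day.

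Of the junction proteins outside the claudin family, Ocln (ENSMUSG00000021638; chr13:100496507-100552718, minus strand) was highest early. Krt8+/+ AECs had 95.4, 90.8 and 96.6 CPM on day 0, 189, 156 and 188 CPM on day 1, 122, 181 and 181 CPM on day 3, and 114, 133 and 101 CPM on day 7. Each cultured library was above each fresh one. The log2 change was 0.92 on day 1 (SE 0.19, edgeR adjusted p = 4.9e-04, 1.89-fold), 0.77 on day 3 (SE 0.19, adjusted p = 0.00199) and 0.30 on day 7 (SE 0.19, adjusted p = 0.191). In Krt8-/- AECs it moved from 96.4, 109 and 80.7 CPM to 196, 163 and 201 CPM on day 1, 192, 169 and 195 CPM on day 3, and 134, 138 and 75.1 CPM on day 7. The fall from day 3 to day 7 passed there (log2 -0.68, edgeR adjusted p = 0.0258) but not without replicate 1, 2 or 3 (0.122, 0.0540 and 0.311).

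Cgn (ENSMUSG00000068876; chr3:94760069-94786492, minus strand), which links the junction to myosin, peaked on day 3. Its Krt8+/+ level went from 96.5, 74.1 and 69.4 CPM on day 0 to 173, 166 and 182 CPM on day 1, 219, 353 and 291 CPM on day 3, and 145, 158 and 149 CPM on day 7. The day 3 libraries were above all others and the fresh libraries below all others. Day 3 was 3.59-fold over day 0 (log2 1.84, SE 0.18, edgeR adjusted p = 5.8e-08), and the steps from day 1 to day 3 (log2 0.73, adjusted p = 0.00484) and from day 3 to day 7 (log2 -0.93, adjusted p = 0.00256) both passed. Without replicate 2 neither step passed (adjusted p = 0.134 and 0.0956). Day 7 stayed 1.88-fold over day 0 (log2 0.91, adjusted p = 1.9e-04).

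The Krt8-/- values of Cgn were 94.9, 77.9 and 74.6 CPM on day 0, 202, 212 and 186 CPM on day 1, 394, 325 and 366 CPM on day 3, and 188, 203 and 122 CPM on day 7. The peak again lay on day 3, with log2 2.13 over day 0 (edgeR adjusted p = 1.2e-08), 0.85 over day 1 (adjusted p = 0.00168) and a fall of log2 -1.08 to day 7 (adjusted p = 4.0e-04).

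Tjp1 (ENSMUSG00000030516; chr7:65296165-65527781, minus strand), the ZO-1 scaffold that binds claudins, Ocln and Cgn, varied least with time apart from Cldn7. In Krt8+/+ AECs it stood at 132, 96.2 and 95.5 CPM on day 0, 134, 116 and 135 CPM on day 1, 110.2, 197 and 149 CPM on day 3, and 110.2, 152 and 127 CPM on day 7. All days overlapped. The log2 change on day 3 was 0.49 (SE 0.21, edgeR adjusted p = 0.0502). It passed with the replicate as a block (edgeR adjusted p = 0.0476), with DESeq2 size factors (0.0422) and with the DESeq2 test (0.0357). It also passed with no filter (edgeR adjusted p = 0.0345) and without replicate 1 (0.0116), but not without replicate 2 or 3. Krt8-/- AECs had 124, 111 and 75.9 CPM on day 0 and 137, 147 and 149 CPM on day 3, and these groups did not overlap. The log2 change was 0.48 (edgeR adjusted p = 0.0593). It passed with the block (edgeR adjusted p = 0.0452), only the libraries compared (0.0216) and the DESeq2 test (0.0477). It also passed without replicate 1 (edgeR adjusted p = 0.0398), but not without replicate 2 or 3. The Krt8-/- values were 119, 121 and 117 CPM on day 1 and 138, 173 and 106 CPM on day 7. Scaled to library totals, Tjp1 passed on each day in both genotypes (log2 0.68 to 1.09), a scaling under which the median of all genes moved by 0.43 to 0.60.

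Between successive culture days, fewer members passed than against day 0. From day 1 to day 3, 3 of 9 were higher and 0 lower in Krt8+/+ AECs, namely Cldn6, Cldn18 and Cgn, against 26.3% of all genes past the threshold (14.4% higher and 11.9% lower). Those 3 were also higher in Krt8-/- AECs, where 23.6% of all genes passed (13.4% higher and 10.2% lower). From day 3 to day 7, Cldn6 was higher and Cldn18 and Cgn were lower in Krt8+/+ AECs (3 of 9, against 6.58% of all genes, 3.11% higher and 3.47% lower). In Krt8-/- AECs, Cldn1 and Cldn6 were higher and Cldn18, Ocln and Cgn lower (5 of 9, against 10.5%, 4.40% higher and 6.15% lower).

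On day 7, replicate 3 stood apart in most of the member claudins. It had the lowest value of the 3 replicates for Cldn1, Cldn3, Cldn4, Cldn6 and Cldn7 in both genotypes, and also for Epcam, an epithelial surface protein that binds Cldn7 (299, 244 and 137 CPM in Krt8+/+ and 257, 300.2 and 134 CPM in Krt8-/- AECs). Cldn18 was highest in replicate 3 in Krt8+/+ AECs (666, 607 and 827 CPM) and lowest there in Krt8-/- AECs (593, 589 and 486 CPM). The summed level of 7 fibroblast markers was highest in that replicate, at 872, 954 and 1809 CPM in Krt8+/+ and 904, 798 and 2981 CPM in Krt8-/- AECs, and none of these markers was at 0. The sum of 5 mesothelial markers was lowest there, at 1548, 1873 and 988 CPM in Krt8+/+ and 1687, 2454 and 879 CPM in Krt8-/- AECs. That of 9 AEC1 markers was highest there in Krt8+/+ (1657, 2185 and 3045 CPM) but not in Krt8-/- AECs (1749, 2621 and 2223 CPM). Replicate 3 was also the only replicate with Y-linked RNA in both genotypes. The part of these cell types or of the Y-linked difference in the claudin levels was not tested.

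Levels of different claudins were compared per kilobase of exon. Over the 23 claudins counted, the total in Krt8+/+ AECs was 948 ± 101 CPM per kb on day 0 (SD, n = 3) and 599.7 ± 90.9, 665 ± 149.6 and 574 ± 152 CPM per kb on days 1, 3 and 7. The means in culture were below that of day 0 on this scale, and no test was made of the total. Scaling to library totals moves all genes upward by log2 0.46, 0.60 and 0.45 on days 1, 3 and 7, which bears on the total and not on the shares. Cldn3 held 53.7%, 56.5% and 56.5% of it on day 0, 35.8%, 30.7% and 36.6% a day later, 21.5%, 18.7% and 18.0% on day 3, and in the end 20.9%, 22.2% and 14.2% on day 7. The share of Cldn18 was 28.2 ± 1.88% on day 0 and 15.3 ± 3.65% on day 1, followed by 38.8 ± 4.36% and 29.6 ± 13.5% on days 3 and 7 (SD, n = 3).

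On day 0, Cldn3, Cldn18 and Cldn7 (mean 12.6%) came in that order and made up nearly all claudin RNA per length, and their shares did not overlap. On day 1, Cldn7 (22.5%) and Cldn4 (22.0 ± 7.43%) held shares within the spread of each other, next to 34.3% for Cldn3. On day 3, Cldn18 led, with Cldn3 (19.4%), Cldn7 (19.2%) and Cldn4 (16.1%) close together. On day 7, Cldn18 (21.0%, 22.7% and 45.1%), Cldn7 (20.4%), Cldn3 (19.1%) and Cldn4 (13.3%) were followed by Cldn6 at 12.1%, from 0.00945% on day 0. The high Cldn18 share of 45.1% belongs to replicate 3. These shares divide by all exon bases of a gene. For Cldn7 these are 1948 bases, against 1335 in its longest transcript, and the shorter length would raise its share. In both genotypes, the place of Cldn7 beside Cldn3, Cldn4 and Cldn18 on days 1, 3 and 7 therefore depends on the length used.

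The mixture in Krt8-/- AECs had the same order of Cldn3 (55.8%), Cldn18 (26.9%) and Cldn7 (13.4%) on day 0. On day 7 it held 24.3% Cldn18, 21.3% Cldn7, 21.1% Cldn3, 14.97% Cldn4, 11.4% Cldn6 and 2.03% Cldn1. Its total was 932 ± 5.40 CPM per kb on day 0 and 547 ± 182.5 CPM per kb on day 7 (SD, n = 3).

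**Figure D3:**
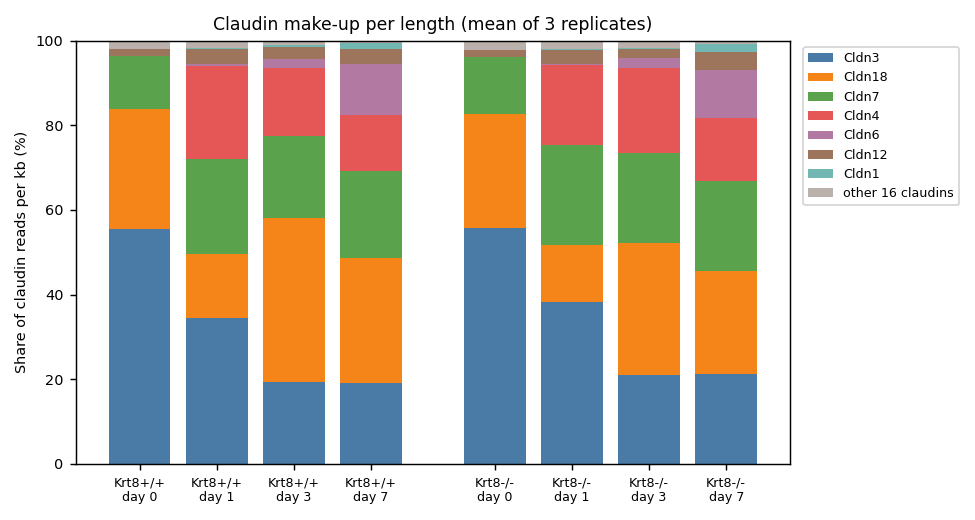
Share of the summed claudin level per kilobase of exon (percent, linear axis from 0) held by each claudin, as the mean of 3 replicates for each genotype and day. Cldn3 falls from 55.6% to 19.1% in Krt8+/+ AECs, Cldn4 appears on day 1, and Cldn6 reaches 12.1% on day 7.

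Krt8-/- and Krt8+/+ AECs were then compared on each day, which asks whether the loss of keratin 8 goes with a different level of these genes. No member passed on day 0, where 0.0277% of all genes did, nor on day 1, day 3 or day 7, where 0.0166% did, nor over days 1 to 7 with the days weighted 0.167, 0.5 and 0.333 (0.0277%). With edgeR the number of members at an unadjusted p under 0.05 was 0 on each day and 1 over days 1 to 7. DESeq2 called 0 members as well, with 1, 0, 0, 0 and 1 at an unadjusted p under 0.05. The genotype difference by day passed for 0 members (0.00554% of all genes), with 0 at an unadjusted p under 0.05 in both tools.

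Over days 1 to 7, the 95% intervals of the members' log2 differences, as Krt8-/- minus Krt8+/+, together spanned -0.42 to 0.88. The Cldn4 difference was 0.30 (-0.27 to 0.88), that of Cldn3 0.24 (-0.13 to 0.62), that of Cldn18 -0.19 (-0.42 to 0.04) and that of Cldn6 -0.00 (-0.42 to 0.42). Cldn1 (0.18, -0.41 to 0.78), Cldn7 (0.19, -0.21 to 0.58), Ocln (0.11, -0.14 to 0.36) and Tjp1 (-0.02, -0.29 to 0.25) also held 0 within their intervals. Differences within these bounds were not excluded.

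Cgn was the only member whose unadjusted p over days 1 to 7 was under 0.05. Its difference was log2 0.26 (SE 0.11, 95% interval 0.03 to 0.49, edgeR unadjusted p = 0.0289, adjusted p = 1.00), and it was higher in 3 of 3 replicates (log2 0.59, 0.12 and 0.07). On day 3, where Cgn peaked, replicate 2 went the other way (log2 -0.12, beside 0.85 and 0.33). Cldn18 on day 7 was lower in 3 of 3 replicates (log2 -0.17, -0.04 and -0.77), with a fitted difference of -0.33 (95% interval -0.70 to 0.04, edgeR unadjusted p = 0.0764). Cldn1 on day 7 was higher in 3 of 3 replicates (log2 0.26, 0.71 and 0.97), with overlapping groups. Its fitted difference was 0.58 (95% interval -0.36 to 1.52, edgeR unadjusted p = 0.215), the largest of any member on a day of culture. Cldn3, Cldn7 and Ocln on day 1 were also higher in 3 of 3 replicates, with overlapping groups. On day 3, Cldn3 (log2 0.55, 0.07 and 0.44) and Cldn7 (0.71, 0.14 and 0.23) were higher in 3 of 3 replicates of Krt8-/- AECs, with no overlap of the groups. The groups did not overlap for Cldn18 on day 7 either, nor for Cgn on day 1 (log2 0.23, 0.35 and 0.04). How many of all genes had groups that did not overlap was not counted, so these cases have no background to be read against. Over days 1 to 7, Cldn3 (0.26, 0.20 and 0.26) and Cldn7 (0.34, 0.15 and 0.13) were higher in 3 of 3 replicates. Apart from Cgn over days 1 to 7, none of these differences reached an unadjusted p under 0.05. The edgeR unadjusted p was 0.244 for Cldn3 and 0.279 for Cldn7 on day 3, and 0.258 for Cgn on day 1. Over days 1 to 7 it was 0.193 for Cldn3 and 0.333 for Cldn7. After adjustment none passed, where 0.0166% of all genes did on days 1, 3 and 7 and 0.0277% over days 1 to 7.

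Cldn4 on day 0 had the largest fitted genotype difference, log2 1.84 (95% interval -0.61 to 4.29), which rests on 28 against 7 reads and did not pass (edgeR adjusted p = 1.00). Cldn4 was higher in 3 of 3 replicates with no overlap of the groups, at 12, 5 and 11 reads against 4, 3 and 0. With so few reads, the size of the difference per replicate is not given. On day 1 the difference was log2 -0.09 (-1.02 to 0.83). Y-linked genes were near 0 in the Krt8+/+ and present in the Krt8-/- libraries of replicate 1, while the genotypes matched in replicates 2 and 3. Without replicate 1, 0 members passed on any day.

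**Figure D4:**
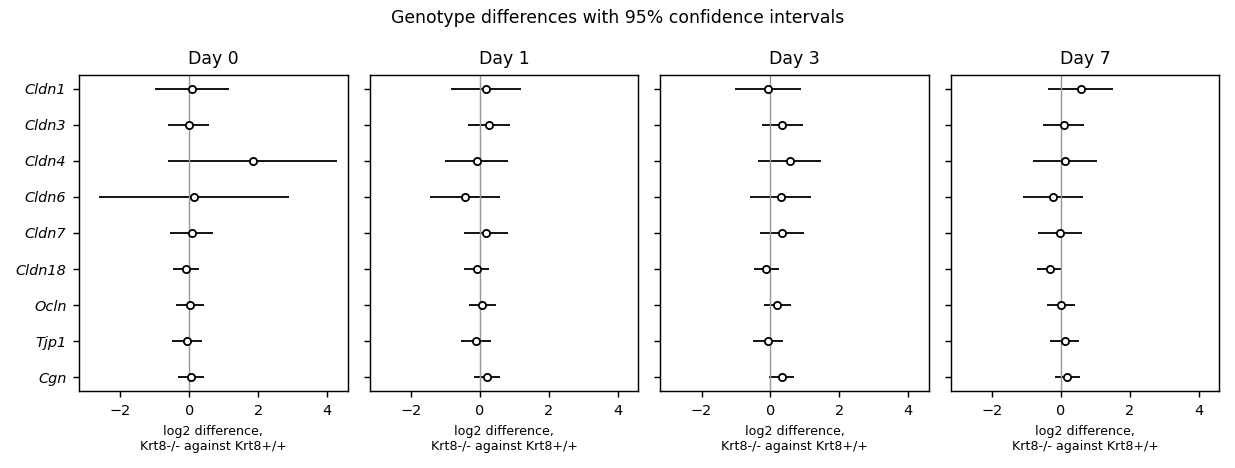
Log2 difference of each member, Krt8-/- minus Krt8+/+ AECs, in a panel per day, with 95% intervals from edgeR and 3 replicates per genotype. All points are open, since no member passed the threshold, and the widest intervals are those of Cldn4 and Cldn6 on day 0, where few reads were counted.

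The other genes of the junction were taken from lists written by role. Of 17 further claudins, 7 had enough reads to be tested, and on day 7 in Krt8+/+ AECs 2 were higher and 3 lower than on day 0 (median log2 -2.21, beside 0.00 for all genes). Over all genes, 28.6% were higher and 30.2% lower on that day (58.8% in all), and the counts of the lists below stand beside these shares. Cldn8, a claudin known from kidney tubules, fell from 13.9, 14.3 and 6.53 CPM to 1 read in all, a ratio of 505 (95% exact interval 90.1 to 19980, counting error only), and in Krt8-/- AECs from 472 reads to 0, at least 197-fold lower with a floor of 3 reads over the group. Cldn10, known from ion-transporting epithelia, fell from 396 to 3 reads (ratio 162, 55.2 to 791) and from 759 to 0 reads (at least 317-fold lower). Cldn15, a pore-forming claudin of the gut, fell from 506 to 12 reads (51.9, 29.4 to 101).

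Markers of some other cell types also fell by day 7, as did the AEC2 markers and 30.2% of all genes. The summed level of 7 club and ciliated markers went from 5885 to 12040 CPM on day 0 to 25.7 to 36.3 CPM on day 7 in Krt8+/+ AECs, all 7 fell, and Scgb3a2 and Ccdc153 were at 0 on day 7. The sum of the 5 mesothelial markers went the other way, from 66.3 to 205 CPM on day 0 to 988 to 1873 CPM on day 7. The part of other cell types in the fall of Cldn8, Cldn10 and Cldn15 was not tested.

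Cldn23 was higher on day 1 (log2 2.25, edgeR adjusted p = 6.2e-05) and day 7 (log2 0.94, adjusted p = 0.0404) in Krt8+/+ AECs. Cldn9 had 0 reads in all 6 fresh libraries and 29, 25 and 25 summed reads on days 1, 3 and 7 in Krt8+/+ AECs, and 9, 16 and 19 reads in Krt8-/- AECs. Cldn12, a claudin without the usual tail that binds ZO proteins, stood at 57.7, 62.2 and 62.2 CPM on day 0 and at 71.3, 79.4 and 91.1 CPM on day 7 (log2 0.41, edgeR adjusted p = 0.063), and it passed on day 1 (log2 0.51, adjusted p = 0.0252). Cldn5, the claudin of endothelium, was too low to be tested, at 0.382, 1.19 and 0.221 CPM on day 0 and 0 in all Krt8+/+ libraries of day 7.

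Among 11 other membrane proteins of the junction, 4 were higher and 2 lower on day 7, a share near the 58.8% of all genes (median log2 0.05). Jam2, an adhesion molecule of the immunoglobulin family, rose from 3.37, 4.12 and 1.44 CPM to 19.7, 25.9 and 70.5 CPM (log2 3.69, SE 0.60, edgeR adjusted p = 2.5e-05), with replicate 3, which had the most fibroblast marker RNA, the highest. Its relative Jam3 rose by log2 2.26 (adjusted p = 2.1e-04), and Ildr2, of the angulin family found where 3 cells meet, by 1.89 (adjusted p = 1.9e-04). Esam, an adhesion molecule known from endothelium, fell from 204, 225 and 201 CPM to 39.4, 52.7 and 70.4 CPM (log2 -1.96, adjusted p = 3.0e-04). The 7 endothelial markers summed to 27.3 to 32.2 CPM on day 0 and to 3.48 to 3.98 CPM on day 7, and their part in the Esam level was not tested. Crb3, an apical polarity protein, was lower by log2 -0.84 (adjusted p = 0.0028).

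Of 21 scaffold and polarity genes, 11 were higher and 6 lower on day 7 in Krt8+/+ AECs, where 28.6% and 30.2% of all genes were (median log2 0.71). Amot, a scaffold that binds YAP, had the largest rise, from 0.827, 1.41 and 0.775 CPM to 52.0, 89.6 and 45.6 CPM (log2 5.97, SE 0.49, edgeR adjusted p = 3.2e-09), and its relative Amotl1 rose by log2 2.33 (adjusted p = 1.3e-07). The scaffold Mpdz rose by 3.31 (adjusted p = 3.6e-06). Tjp3 (ZO-3), a relative of Tjp1, fell from 70.8, 70.6 and 65.3 CPM to 8.64, 5.81 and 4.04 CPM (log2 -3.48, SE 0.34, adjusted p = 2.8e-08), while Tjp1 did not pass. The polarity genes Pard3 (log2 -1.30, adjusted p = 3.2e-04) and Pard6a (-1.13, adjusted p = 0.00101) were lower.

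Of 5 membrane proteins and inhibitors that bind or protect claudins, 1 was higher and 2 lower on day 7 (58.8% of all genes passed). Epcam was lower (log2 -0.60, SE 0.25, edgeR adjusted p = 0.0425), as was the protease inhibitor Spint2 (log2 -0.54, adjusted p = 0.0416).

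Of 13 transcription factors known to switch junction genes on or off, 5 were higher and 6 lower on day 7, where 28.6% and 30.2% of all genes were. Ehf, an epithelial ETS factor, fell from 162, 146 and 178 CPM to 14.6, 9.37 and 4.64 CPM (log2 -4.09, SE 0.31, edgeR adjusted p = 1.1e-09). Nkx2-1, the lung lineage factor, fell from 542, 585 and 645 CPM to 57.2, 65.3 and 76.1 CPM (log2 -3.16, adjusted p = 1.8e-10), and Ovol1 was lower as well (log2 -2.73, adjusted p = 0.00106). The repressors Snai1, Zeb2 and Zeb1 were higher by log2 5.25, 3.02 and 2.82 (adjusted p = 2.8e-07, 0.00135 and 3.0e-04). Snai1 stood at 7.21, 6.88 and 15.6 CPM on day 7, with replicate 3 again the highest, and the part of fibroblast RNA in that level was not tested.

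In Krt8-/- AECs on day 7, the numbers higher and lower were 3 and 4 of 7 further claudins, 5 and 2 of 11 membrane proteins, 11 and 5 of 21 scaffolds, 2 and 2 of 5 partners, and 4 and 6 of 13 transcription factors. Of all genes, 28.6% were higher and 29.9% lower there (58.5% in all). Between the genotypes over days 1 to 7, 0 genes of any of these lists passed (edgeR), with 2 further claudins and 1 partner at an unadjusted p under 0.05.

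Genes with a pattern most like that of 3 members were found by the mean absolute difference in log2 level from the member's pattern over the 8 groups. For Cldn4 they included Ereg (0.52) and Il1rl1 (0.53), for Cldn6 Flt4 (0.27), Fgf13 (0.28) and Ccn2 (0.35), and for Cldn18 Sardh (0.13), Arhgap29 (0.15) and Chaf1b (0.15). The means of Ereg in Krt8+/+ AECs were 0.322, 76.3, 87.2 and 82.9 CPM on days 0, 1, 3 and 7. Those of Arhgap29 were 101, 35.9, 83.2 and 59.2 CPM, with the same dip on day 1 as Cldn18.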

How the data were processed

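RNA of alveolar epithelial cells was sequenced in 24 libraries. The authors deposited raw read counts per Ensembl gene, without normalization. The submitters' processing notes name cutadapt 2.3, STAR 2.7.8a, RSEM 1.3.3 and GRCm38, without their order. Of 55426 entries, 5 reporter entries held 0 counts and were left out. Groups came from the genotype and time labels. In R 4.3.3, genes were filtered with filterByExpr of edgeR 4.0.16 (min.count 10, min.total.count 15), scaled with TMM, and fitted in 1 quasi-likelihood model of 8 groups with 16 residual degrees of freedom. DESeq2 1.42.0 was an alternative. The procedure was tested on simulated data in which few genes changed, unlike the days of culture here. That test therefore does not bear on how TMM scaling behaves between days. Replicate numbers go with shared batch dates on the labels and so pair the libraries, and deviations of paired libraries correlated at -0.0345 to 0.548 over 42 pairs. Exact intervals and floors cover counting error only. Symbols and lengths came from GENCODE M21.

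All members are named. Of each list, up to 3 genes with the largest rise and 3 with the largest fall on day 7 in Krt8+/+ AECs are named, among those past 0.05, at 5 CPM or more in a group and with the same direction in each replicate. Cldn2, Cldn5, Cldn10 and Epcam are always named, and Cldn9 and Cldn12 were added after their values were seen. Some genes that these rules name are not reported here. The members, lists and tests were chosen with earlier results of these data known.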

Additional observations from a re-analysis of the deposited data

How the results depend on the processing

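The alternatives were the size factors and the test of DESeq2, library totals in place of TMM, no filter on low counts, a fit of only the libraries compared, the replicate as a block, and each replicate left out.

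Members past the threshold numbered 5 in place of 3 with the DESeq2 test for day 3 against day 1 in Krt8+/+ AECs, 1 to 3 with a replicate left out for day 7 against day 3 (3 with all, and 1 without replicate 2), and 2 to 3 in Krt8-/- AECs (5 with all, and 2 without replicate 1). Without a replicate, fewer libraries enter each group. Over all genes, leaving out a replicate gave 2614 to 3085 and 325 to 572 genes for these steps in Krt8+/+ AECs (4740 and 1188 with all), and 1842 to 2691 and 834 to 969 in Krt8-/- AECs (4252 and 1903 with all), and a fit of only the libraries compared gave 2879 for day 3 against day 1 in Krt8+/+ AECs. Between genotypes, DESeq2 called 9, 5, 8 and 17 genes on days 0, 1 and 3 and over days 1 to 7 (5, 3, 3 and 5 with edgeR), and 3 for the difference by day (1 with edgeR). Without the filter the numbers were 10 on day 0, 6 on day 1, 11 over days 1 to 7 and 2 for the difference by day. With a replicate left out they were 2 to 5 on days 0, 1 and 7, 3 to 5 on day 3, and 0 for the difference by day.

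With the replicate as a block, which follows the pairing, 9 genes passed over days 1 to 7 in place of 5. The sign of near-zero values turned for Cldn6 between genotypes over days 1 to 7 (log2 0.0176) and for Cldn7 on day 7 in Krt8+/+ AECs (-0.000646). Apart from Cldn1 and Tjp1 in the report, the block changed no other call of a member.

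Library totals moved the median of all genes by log2 0.46, 0.60 and 0.45 on days 1, 3 and 7 in Krt8+/+ and 0.47, 0.54 and 0.43 in Krt8-/- AECs. In Krt8+/+ AECs, 7184 genes were then higher and 3115 lower on day 1 (4730 and 5144 with TMM), 8201 and 2784 on day 3 (4711 and 5025), and 7507 and 3810 on day 7 (5158 and 5453). Values that turned were Cldn18 on day 3 (log2 0.57 in Krt8+/+ and 0.50 in Krt8-/- AECs), Cldn7 for day 3 against day 1 in Krt8+/+ (0.0201) and on day 7 in Krt8-/- AECs (0.35), and Ocln for day 3 against day 1 in Krt8-/- AECs (0.0744). The Cldn18 fall on day 7 in Krt8+/+ (log2 -0.31, edgeR adjusted p = 0.118) and the Cldn3 fall on day 1 in Krt8-/- AECs (adjusted p = 0.101) did not pass, and Ocln on day 7 passed in both genotypes (log2 0.75 and 0.70). So did Tjp1 on each day in both genotypes (log2 0.68 to 1.09) and Cldn7 on days 1 and 3 in Krt8-/- AECs (0.80 and 0.93), with the median shift included. Without the filter, Cldn18 on day 3 in Krt8+/+ (0.00489) and Ocln for day 3 against day 1 in Krt8-/- AECs (0.0020) turned.

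With each replicate left out in turn, values that had not passed the test held both signs, as log2 ranges. In Krt8+/+ AECs these were Cldn1 on day 1 (-0.0422 to 0.89), Cldn7 on day 7 (-0.41 to 0.33), Cldn18 on day 3 (-0.17 to 0.11), Ocln (-0.32 to 0.0697) and Tjp1 (-0.0520 to 0.47) for day 3 against day 1, and Cldn3 (-0.53 to 0.18) and Cldn7 (-0.56 to 0.28) for day 7 against day 3. In Krt8-/- AECs they were Cldn7 on day 7 (-0.31 to 0.25), Cldn18 on day 3 (-0.17 to 0.0761), Cldn4 (-0.37 to 1.21), Cldn7 (-0.00833 to 0.19) and Ocln (-0.0589 to 0.00558) for day 3 against day 1, and Tjp1 for day 7 against day 3 (-0.23 to 0.13). Between genotypes over days 1 to 7 they were Cldn6 (-0.26 to 0.28), Ocln (-0.0250 to 0.18) and Tjp1 (-0.12 to 0.0427). Cldn7 for day 7 against day 3 also turned without replicate 2 (0.00545), and Tjp1 between genotypes without replicate 3 (0.0160). With DESeq2 or only the libraries compared, Cldn3 also fell from day 1 to day 3 in Krt8+/+ AECs (log2 -0.73 and -0.69), and with the latter Cldn7 passed on day 3 in Krt8-/- AECs (0.37). That step of Cldn3 also passed in Krt8-/- AECs with only the libraries compared (log2 -0.64). Without replicate 3 it passed in both genotypes (log2 -0.71 in Krt8+/+ and -0.74 in Krt8-/- AECs). Claudin shares with the length of the longest transcript moved beyond 1 SD in 8 of 24 cases. The causes were not tested.

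For day 0 of Cldn4 and Cldn6, depth limits the precision, since 6 to 28 reads stand behind a group.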

Other observations

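Cldn2, a pore-forming claudin, stood at 1.46, 3.14 and 0.886 CPM on day 0 in Krt8+/+ AECs and at 0, 0 and 1.13 CPM on day 7. The day 7 reads came from replicate 3 alone, and Krt8-/- AECs had 0 reads in all 3 replicates on day 7 after 0.792, 1.92 and 1.24 CPM on day 0.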
